A study of Mus musculus with 7 samples.

Results

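The core circadian clock genes measured here were Per1, Per2, Per3, Cry1, Cry2, Arntl, Clock, Nr1d1, Nr1d2 and Dbp. They were taken by symbol from a table of 24084 gene rows, and all 10 were present. The 10 genes were chosen by their measured CPM in skin against SDLN, with those values in view, so the differences between the tissues below are given as descriptions and carry no test of their own. The series profiled sorted regulatory T cells (Tregs), CD4 T cells that restrain immune responses and depend on the factor Foxp3, by RNA sequencing. The compared groups were 4 libraries of Tregs from telogen skin, the resting phase of the hair cycle, and 3 libraries of Tregs from the skin-draining lymph nodes (SDLN). All mice were of the strain labelled Foxp3-DTR, called Foxp3-DTR/GFP in the design text, and were 6 weeks old, so both tissues carried the same Foxp3 allele, which links a diphtheria toxin receptor and a green fluorescent protein to Foxp3. No treatment is named in the labels. The labels state no sort gate, no number of animals behind a library and no time of day at which tissue was taken, so p-values measure only the spread between these libraries, which may be technical.

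The mammalian clock is a transcriptional loop that runs in most cell types, lymphocytes included. The proteins CLOCK and BMAL1 (encoded by Arntl) bind E-box sequences and activate the Per and Cry genes, the Nr1d genes and Dbp. PER and CRY proteins return to the nucleus and inhibit CLOCK and BMAL1, while the nuclear receptors REV-ERB alpha and beta (encoded by Nr1d1 and Nr1d2) repress Arntl through elements that ROR receptors activate. DBP drives genes through D-box elements. Transcripts of most of these genes rise and fall over the day, with Arntl opposite in phase to the Nr1d genes, Dbp and the Per genes.

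Total gene counts were 11009609 to 13921238 in skin libraries and 13123241 to 14785751 in SDLN libraries, and levels below are CPM, a gene's counts relative to the library's total, scaled by the trimmed mean of M-values (TMM). Skin libraries had 10858.5 ± 1333 genes with a count (SD, n = 4), against 13583 ± 231 in SDLN libraries (SD, n = 3). Pairs of skin libraries correlated across genes at 0.651 to 0.746 on the log2(CPM + 1) scale, and pairs of SDLN libraries at 0.970 to 0.988. Pairs of a skin and an SDLN library correlated at 0.653 to 0.746, so skin libraries were no more alike than libraries across the tissues. For skin 1 the title and source say skin and 1 tag says lymph node. SDLN 3 alone had counts of the Y-linked gene Ddx3y in quantity (3877, against at most 2 in any other library). Xist, a transcript of female cells, had 9522 to 11758 counts in skin, 4701 and 4653 in SDLN 1 and 2, and 4 in SDLN 3. By these genes SDLN 3 had the male pattern and every other library the female one. Foxp3 was at 107, 248, 126 and 196 CPM in skin 1 to 4, against 69.0, 95.5 and 102 CPM in SDLN 1 to 3, and Ctla4, an inhibitory receptor and the leading Treg marker, was at 3820 ± 856 CPM in skin (SD, n = 4) and 651 ± 132 CPM in SDLN (SD, n = 3). Cd3e, a chain of the T cell receptor complex, was at 560 to 1248 CPM in skin and 1662 to 2203 CPM in SDLN. Markers of other cells stood apart in single skin libraries: 10 keratinocyte markers summed to 1095 CPM in skin 3, against 25.6 to 35.4 CPM in the other skin libraries and 9.19 to 11.2 CPM in SDLN. In skin 3, 8 fibroblast markers summed to 2979 CPM, against 3.07 to 10.4 CPM in the other skin libraries and at most 0.882 CPM in SDLN. Krt14 and Col3a1 led these lists, at 335 and 1453 CPM in skin 3, against no count in any SDLN library for either. For 18 markers of macrophages and dendritic cells the sum was 10289 CPM in skin 4, 780 to 3213 CPM in the other skin libraries and 350 to 553 CPM in SDLN. Cd74 led that list with 488 to 7055 CPM in skin and 300 to 490 CPM in SDLN, while Cd207 had no count anywhere and Cd14, Fcgr1 and Itgax had none in SDLN. Of the other lists, led by Ebf1 (B cell), Nkg7 (CD8 T and NK cell), Kit (mast cell) and Pecam1 (endothelial cell), none summed to more than 340 CPM in any skin library. In these bulk libraries, fewer cells of a type and less RNA per cell cannot be told apart.

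Most clock transcripts were more abundant in skin Tregs than in SDLN Tregs, and the exceptions were those that were nearly missing from some skin libraries. Per1 stood furthest apart, at 19.4-fold the SDLN mean, followed by Nr1d1 (9.29-fold), Nr1d2 (6.31-fold), Per3 (6.23-fold) and Arntl (4.98-fold), all as ratios of mean CPM. Cry1 (2.91-fold) and Clock (2.28-fold) were also above the SDLN range in every skin library. Per2, Cry2 and Dbp overlapped between the tissues. All 10 genes passed the low-count filter, by which 11376 genes were tested, and the fitted log2 fold change of skin over SDLN was above 0 for 9 of them, against 51.8% of all tested genes. Its median was 1.93 over the 10 genes and 0.05 over all tested genes.

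**Figure D1:**
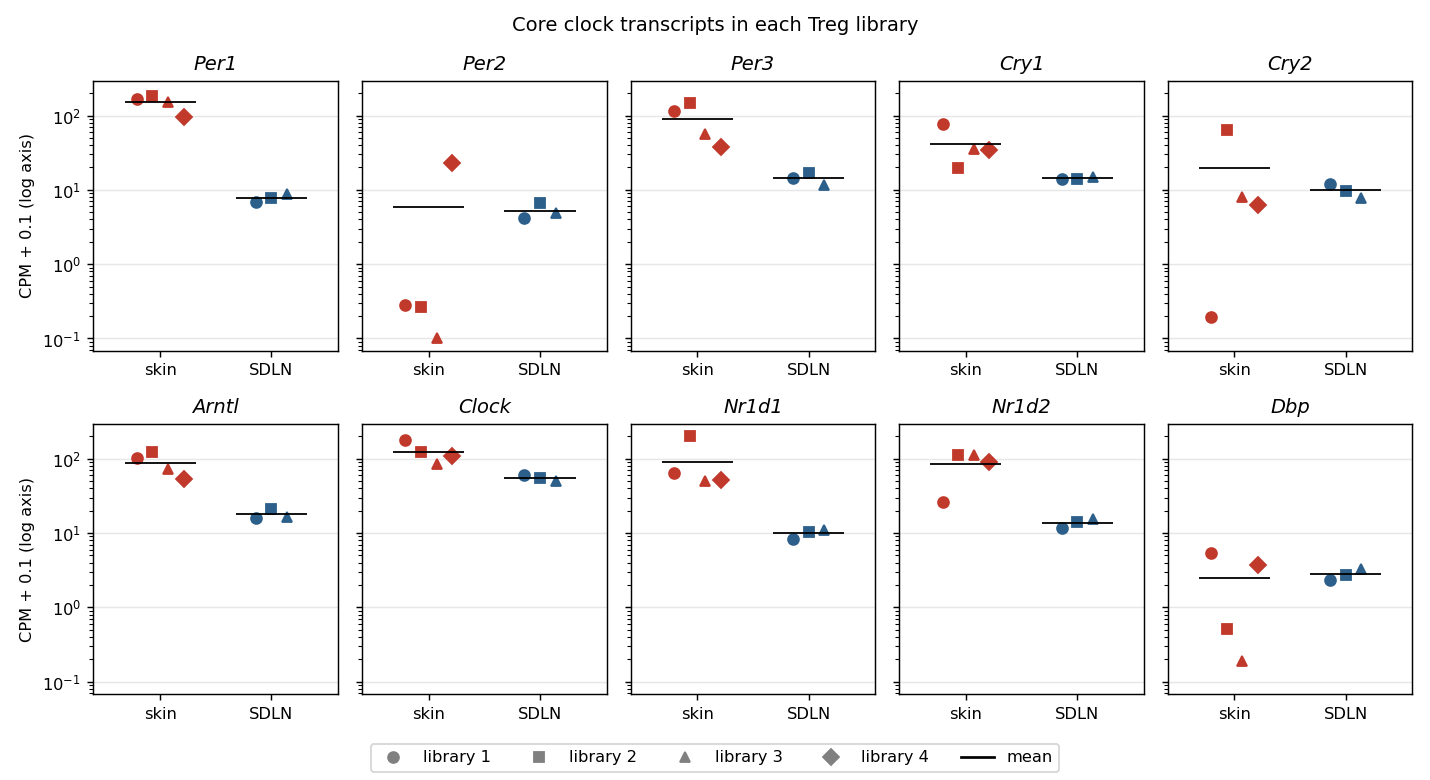
CPM + 0.1 of each clock gene on a log axis, with 1 point per library (skin left, SDLN right, marker shape by library number) and a line at the mean. The skin points lie above all SDLN points for 7 genes, while Per2, Cry2 and Dbp have skin points near 0 CPM in skin 1 to 3, in skin 1, and in skin 2 and 3.

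Of the 10 genes, 5 (Per1, Per3, Arntl, Nr1d1 and Nr1d2) had an adjusted p under 0.05 and were higher in skin, where 3.28% of all tested genes were called higher and 7.24% in either direction, and 0 were called lower. The test was edgeR's quasi-likelihood test with Benjamini-Hochberg adjustment over all tested genes. No clock gene was lower at an unadjusted p under 0.05, nor was one called lower by DESeq2 or limma-voom. DESeq2 called 6 higher, the 5 and Clock, whereas limma-voom called Per1 alone, with adjusted p 0.0691 for Arntl, 0.163 for Nr1d1, 0.172 for Per3 and 0.176 for Nr1d2. Of all 11376 tested genes, DESeq2 called 923 higher and limma-voom 271. The median log2 fold change over all tested genes was 0.044 with DESeq2 and -0.62 with limma-voom. Per1 was also the only clock gene called by edgeR's test without the low-count filter (adjusted p 0.0715 to 0.0997 for the other 4). In that setting 188 of 16157 genes were called higher. The libraries of the tissues did not overlap for 7 of the 10 genes, skin being higher in each, and this held for 10.1% of tested genes in that direction and for 26.6% in either direction. Since the contrast was known when the genes were chosen, nothing is read from these shares. Per1 was called whichever library was left out, whereas the count of called clock genes was 1 without SDLN 1, 2 or 3, 3 without skin 2 and 4 without skin 1, 3 or 4.

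**Figure D2:**
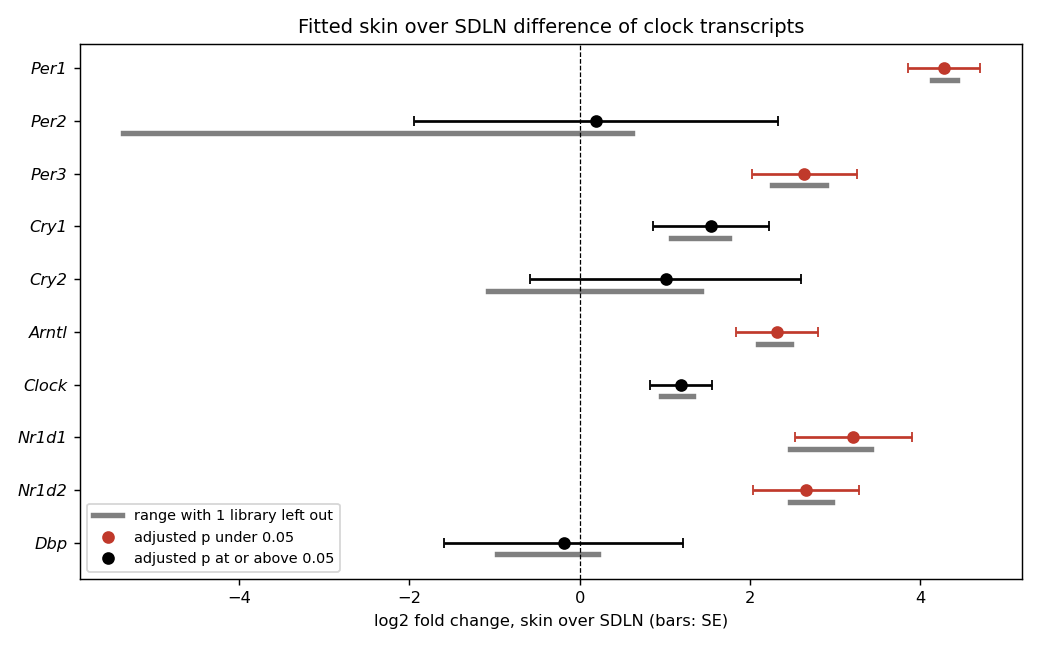
Fitted log2 fold change of skin over SDLN for each clock gene, with its SE as a bar, in red where the adjusted p was under 0.05, and below it in grey the range when each library is left out in turn. Per1 stays between 4.14 and 4.43, and the grey range crosses 0 for Per2, Cry2 and Dbp.

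The Per genes encode the repressor proteins that give the loop its delay, and Per1 is also known as an early response gene to glucocorticoids and cyclic AMP. Per1 (ENSMUSG00000020893.17, chromosome 11, 69095217 to 69109960, mm10) was at 167, 185, 152 and 95.4 CPM in skin 1 to 4, against 6.78, 7.73 and 8.65 CPM in SDLN 1 to 3. Every skin library was thus far above every SDLN library, and the log2 fold change was 4.28 (SE 0.42). Its spread in skin was small for these libraries: the coefficient of variation (CV, SD over mean) was 0.258, and 7.25% of tested genes had a lower one, with a median of 0.750 over all tested genes. Genes with low counts are among these, and genes of like level were not compared. The log2 fold change of Per1 was 4.27 without skin 3, the library with the highest keratinocyte and fibroblast marker sums, and 4.43 without skin 4, the one with the highest macrophage and dendritic cell marker sum. Each of these sums was above the SDLN range in all 4 skin libraries, so leaving out 1 library does not remove the excess. Outside skin 3 the keratinocyte sum rested mostly on Krt15 (20.7 CPM in skin 1) or Sfn (24.9 and 27.4 CPM in skin 2 and 4). There Krt5 and Krt14 had at most 1 count. Krt10 was lower in skin, at 0 to 0.0881 CPM, against 2.42 to 2.65 CPM in SDLN. The part of the marker sums in the Per1 level was not tested.

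Per3 (chromosome 4, 151003652 to 151044665) was at 113, 148, 55.6 and 37.4 CPM in skin 1 to 4, against 14.2, 17.0 and 11.4 CPM in SDLN 1 to 3. Each skin library was above each SDLN library, with a 3.94-fold range within skin (log2 fold change 2.64, SE 0.62). Per2 (chromosome 1, 91415982 to 91459324), the family member most tied to clock timing in mouse mutants, behaved otherwise. It had 2, 2, 0 and 324 counts in skin 1 to 4, which is 0.184, 0.162, 0 and 23.1 CPM, against 4.14, 6.56 and 4.71 CPM in SDLN 1 to 3. In skin 3 a count of 0 allows up to 0.264 CPM (3 counts, counting error only). So 3 skin libraries lay below the SDLN range and skin 4 lay above it. The fitted log2 fold change was 0.19 (SE 2.14) with all libraries and -5.36 (SE 1.38) without skin 4.

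The balance within the Per family therefore differed between the tissues. Per kilobase of annotated exon, Per1 made up 71.5%, 68.1%, 82.4% and 68.3% of the summed Per1, Per2 and Per3 level in skin 1 to 4, against 35.6%, 32.2% and 43.5% in SDLN 1 to 3. Per2 made up 0 to 0.0758% in skin 1 to 3 and 15.9% in skin 4, against 20.9% to 26.3% in SDLN. Per3 made up 15.7% to 31.8% in skin and 33.7% to 43.6% in SDLN. The summed level was 36.8 ± 10.2 CPM per kilobase in skin (SD, n = 4) and 3.73 ± 0.469 in SDLN (SD, n = 3).

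**Figure D3:**
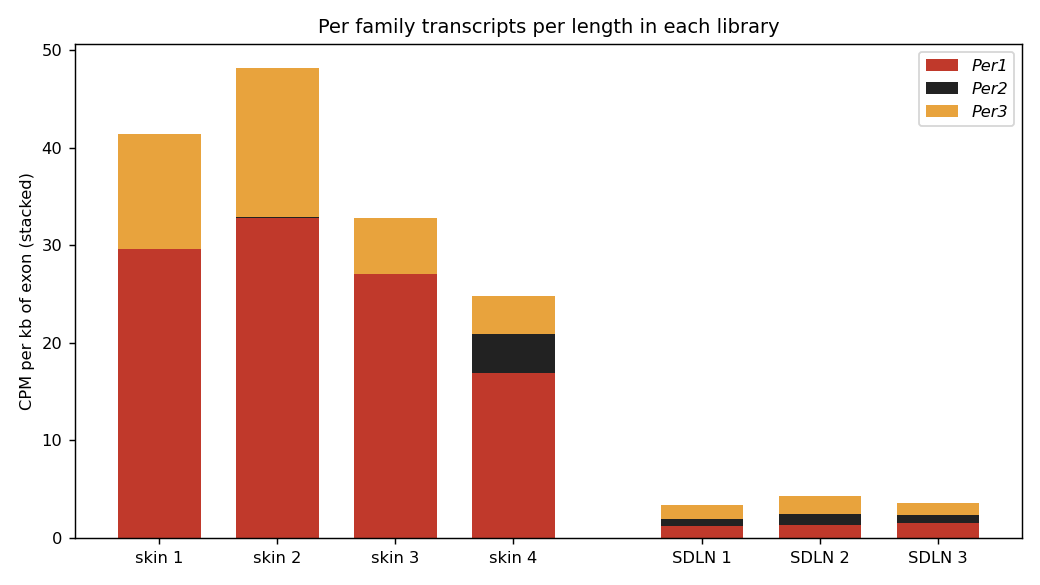
Stacked bars of Per1, Per2 and Per3 levels in CPM per kilobase of exon, 1 bar per library, skin left and SDLN right. Bars reach 24.8 to 48.2 in skin and 3.39 to 4.26 in SDLN, and Per2 is visible in skin 4 and in the SDLN libraries but not in skin 1 to 3 at this scale.

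The cryptochromes Cry1 and Cry2 encode the partners of the PER proteins and the direct inhibitors of CLOCK and BMAL1. Cry1 (chromosome 10, 85131700 to 85185064) was at 75.8, 19.5, 35.3 and 34.2 CPM in skin 1 to 4, against 13.8, 13.8 and 15.0 CPM in SDLN 1 to 3. The tissues did not overlap, but skin 2 was close to the SDLN level, and the log2 fold change of 1.54 (SE 0.68) was not called. Cry2 (chromosome 2, 92403646 to 92434043) was at 0.0920, 64.2, 7.93 and 6.06 CPM in skin 1 to 4, against 11.8, 9.67 and 7.65 CPM in SDLN 1 to 3. Skin 2 was thus far above SDLN, skin 1 had a single count (1), and skin 3 was within the SDLN range and skin 4 just below it. The fitted log2 fold change was 1.01 (SE 1.59), and -1.08 (SE 1.43) without skin 2. Cry1 and Cry2 were at their extremes in opposite libraries: Cry1 was highest in skin 1 and lowest in skin 2, and Cry2 was highest in skin 2 and lowest in skin 1. Per kilobase, Cry1 made up 99.9%, 36.5%, 89.4% and 91.4% of their sum in skin 1 to 4, against 68.8%, 73.0% and 78.8% in SDLN 1 to 3.

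Of the activators, Arntl encodes BMAL1 and Clock its partner. Arntl (chromosome 7, 113207465 to 113314126) was at 104, 123, 73.6 and 53.6 CPM in skin 1 to 4, against 16.01, 20.7 and 16.5 CPM in SDLN 1 to 3. Each skin library was well above the highest SDLN library (log2 fold change 2.31, SE 0.48). Clock (chromosome 5, 76209868 to 76304792) was the most abundant clock transcript by CPM in SDLN, at 179, 124, 85.0 and 110 CPM in skin 1 to 4, against 60.2, 54.3 and 49.7 CPM in SDLN 1 to 3. The tissues did not overlap (log2 fold change 1.19, SE 0.36), and Clock was called with DESeq2 but not with edgeR's test. Arntl and Clock had among the smaller spreads in skin, with CVs of 0.347 and 0.322, and 14.2% and 11.9% of tested genes, at any level, had a lower one. Per kilobase, Arntl was 56.0 ± 8.12% of the sum of both activators in skin (SD, n = 4) and 37.2 ± 4.22% in SDLN (SD, n = 3).

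The REV-ERB receptors repress Arntl in the second loop of the clock. Nr1d1 (chromosome 11, 98767932 to 98775333) was at 64.1, 199, 49.5 and 51.1 CPM in skin 1 to 4, against 8.34, 10.1 and 10.97 CPM in SDLN 1 to 3. All skin libraries were above SDLN and skin 2 stood above the others, so that the log2 fold change was 3.21 (SE 0.69) with all libraries and 2.47 without skin 2. Exons of Nr1d1 overlap those of Thra on the other strand over 263 bases, 8.55% of the Nr1d1 exon bases, and no label says whether counting used strand. Thra, the thyroid hormone receptor alpha gene, was at 2.03 to 12.3 CPM in skin and 7.26 to 9.18 CPM in SDLN. It was below Nr1d1 in every skin library and close to it in SDLN. The part of reads from the shared stretch in the Nr1d1 level was not tested. Nr1d2 (chromosome 14, 18204054 to 18239127) was at 25.9, 112, 113 and 90.1 CPM in skin 1 to 4, against 11.7, 13.8 and 15.1 CPM in SDLN 1 to 3. Here skin 1 was the low library, still above SDLN (log2 fold change 2.66, SE 0.62). The share of Nr1d1 in the sum of both receptors per kilobase was nearly constant in SDLN, at 56.0 ± 0.257% (SD, n = 3), and varied in skin, at 81.3%, 75.7%, 43.5% and 49.9% in skin 1 to 4. Arntl and the genes for its repressors were thus both higher in all 4 skin libraries than in any SDLN library.

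Dbp, the D-box activator and a classical output of the loop, was the least abundant of the 10 genes in both tissues by CPM. Dbp (chromosome 7, 45705088 to 45710203) was at 5.34, 0.404, 0.0881 and 3.57 CPM in skin 1 to 4, against 2.24, 2.62 and 3.17 CPM in SDLN 1 to 3. Skin 1 and 4 lay above the SDLN range and skin 2 and 3, with 5 counts and 1 count, lay below it (log2 fold change -0.19, SE 1.40). Its sign turned without skin 2 (0.16) or skin 3 (0.21). Dbp exons overlap those of Sphk2, a sphingosine kinase gene on the other strand, over 18.0% of their bases, and Sphk2 was at 4.85 to 70.0 CPM in skin and 31.6 to 43.1 CPM in SDLN, so reads of the shared stretch cannot be assigned. A similar overlap with D930015M05Rik covers 4.67% of the Cry2 exon bases, where that transcript had no count in skin and at most 7 in an SDLN library.

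The skin libraries thus differed in which clock gene was high or low. Skin 2 was the highest skin library for Per1, Per3, Cry2, Arntl and Nr1d1, skin 1 for Cry1, Clock and Dbp, skin 3 for Nr1d2 and skin 4 for Per2. Of the 10 genes, 3 (Per2, Cry2 and Dbp) had 3 counts or fewer in at least 1 skin library, as did 36.8% of all tested genes, and 2.13% of tested genes had so few in at least 1 SDLN library. Per2 had 3 counts or fewer in 3 skin libraries, as did 10.2% of tested genes. The median CV over the 10 genes was 0.581 in skin and 0.141 in SDLN, against 0.750 and 0.187 over all tested genes. The number of genes detected was lower in skin as well, and its part in these low counts was not tested.

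Compared per kilobase of exon, the order of levels was not the same in the tissues. In skin Nr1d1 (29.6 ± 23.6 CPM per kilobase, SD, n = 4) and Per1 (26.6 ± 6.88) were highest, then Nr1d2 (15.8 ± 7.60), Cry1 (12.3 ± 7.24), Arntl (11.7 ± 4.08), Per3 (9.21 ± 5.31), Clock (9.07 ± 2.92), Cry2 (3.09 ± 4.73), Per2 (1.001 ± 1.96) and Dbp (0.785 ± 0.848), and the libraries of each pair of neighbours overlapped. In SDLN Cry1 (4.25 ± 0.206 CPM per kilobase, SD, n = 3) and Clock (3.98 ± 0.384) came first, then Nr1d1 (3.18 ± 0.434), Nr1d2 (2.50 ± 0.324), Arntl (2.36 ± 0.343), Cry2 (1.54 ± 0.329), Per3 (1.48 ± 0.289), Per1 (1.37 ± 0.166), Dbp (0.894 ± 0.156) and Per2 (0.877 ± 0.216). Neighbours in SDLN overlapped except Clock with Nr1d1, Arntl with Cry2 and Per1 with Dbp. Per1 was eighth from the top in SDLN and second in skin.

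Promoter windows show where the letters known to be read by clock factors lie in genes that were high in skin. RefSeq windows of build GRCm38.p6, which is mm10, from 250 bases before to 50 bases after a start site were at hand for 9 of the 10 genes, all but Per2, as 13 windows. Both strands were searched for the E-box CACGTG, which 7.15% of all 32851 windows hold, its variant CACGTT (4.68%), the D-box as TTATGTAA (0.938%) or TTACGTAA (0.119%), the ROR and REV-ERB element as TAGGTCA (2.61%) or TGGGTCA (3.98%), and the cyclic AMP response element TGACGTCA (1.79%). No match of 1 motif overlapped that of another in these windows, and a match is a description and not a binding site. A window each of Per1, Per3, Arntl and Nr1d1 is shown because these genes were called higher in skin and held a match, printed 5′ to 3′ on the gene's strand with the match in capitals. Per1 lies on the plus strand (chr11:69098699-69098998), Per3 on the minus strand (chr4:151044616-151044915), Arntl on the plus strand (chr7:113207261-113207560) and Nr1d1 on the minus strand (chr11:98775328-98775627).
Per1: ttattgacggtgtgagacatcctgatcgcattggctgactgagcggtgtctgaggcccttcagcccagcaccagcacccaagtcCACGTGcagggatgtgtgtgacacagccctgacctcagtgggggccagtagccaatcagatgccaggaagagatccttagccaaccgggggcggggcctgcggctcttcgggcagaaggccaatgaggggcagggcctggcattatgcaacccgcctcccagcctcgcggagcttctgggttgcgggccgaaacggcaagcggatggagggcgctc
Per3: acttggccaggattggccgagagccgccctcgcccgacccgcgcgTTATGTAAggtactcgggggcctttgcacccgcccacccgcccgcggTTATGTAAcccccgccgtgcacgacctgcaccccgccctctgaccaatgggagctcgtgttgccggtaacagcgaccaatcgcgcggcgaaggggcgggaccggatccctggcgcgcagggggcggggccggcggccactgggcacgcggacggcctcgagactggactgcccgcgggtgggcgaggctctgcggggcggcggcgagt
Arntl: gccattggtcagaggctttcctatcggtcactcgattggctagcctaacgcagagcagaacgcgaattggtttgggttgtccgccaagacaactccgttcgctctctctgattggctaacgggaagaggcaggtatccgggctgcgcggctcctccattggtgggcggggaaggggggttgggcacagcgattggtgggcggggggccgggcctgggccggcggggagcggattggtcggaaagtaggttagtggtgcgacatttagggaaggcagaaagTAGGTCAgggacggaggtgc
Nr1d1: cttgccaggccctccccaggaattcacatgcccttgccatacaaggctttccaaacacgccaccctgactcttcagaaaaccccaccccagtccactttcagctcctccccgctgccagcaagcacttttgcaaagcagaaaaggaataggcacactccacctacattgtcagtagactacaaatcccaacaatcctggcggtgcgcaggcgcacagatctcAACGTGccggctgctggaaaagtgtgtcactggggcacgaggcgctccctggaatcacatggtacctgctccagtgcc

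The Per1 window held 1 E-box, which began 166 bases before the start site. The Per3 window held 2 copies of the D-box, beginning 205 and 158 bases before the start. The Arntl window held 1 ROR and REV-ERB element, which began 31 bases into the transcript, and the Nr1d1 window held 1 copy of the E-box variant on its other strand, 28 bases before the start. Of the genes that were not called, Cry1 held an E-box and an E-box variant and Cry2 an E-box variant. The windows of Clock, Nr1d2 and Dbp and the other windows of Per1 and Arntl held none of these letters. Matches were thus found both in genes that were higher in all skin libraries and in Cry2, which was not.

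The wider clock machinery was read from 3 lists of 39 genes in all, of which 36 were tested, 4 were called higher in skin and 1 lower (3.28% and 3.96% of all tested genes). Their median log2 fold change was 0.66, against 0.05 over all tested genes. Among 10 tested transcription factors and repressors 2 rose, 0 fell and 8 did not pass, and 0 were lower also at an unadjusted p under 0.05 and by DESeq2 or limma-voom. Rora, the receptor that activates Arntl through the elements where REV-ERB represses it, was at 821, 1249, 978 and 982 CPM in skin 1 to 4, against 40.2, 53.7 and 46.1 CPM in SDLN 1 to 3 (log2 fold change 4.43, SE 0.28, adjusted p = 0.00104). It was called under all alternatives tried. Nfil3, the repressor that competes with DBP for D-box elements, was at 91.7, 203, 78.5 and 145 CPM in skin 1 to 4, against 2.51, 1.59 and 6.26 CPM in SDLN 1 to 3 (log2 fold change 5.23, SE 0.72, adjusted p = 0.0110). Nfil3 was not called without SDLN 1 (adjusted p = 0.0902) or SDLN 2 (adjusted p = 0.0668), with 1.10e-14 to 0.116 over all alternatives, and its log2 fold change was 5.96 without SDLN 3.

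**Figure D4:**
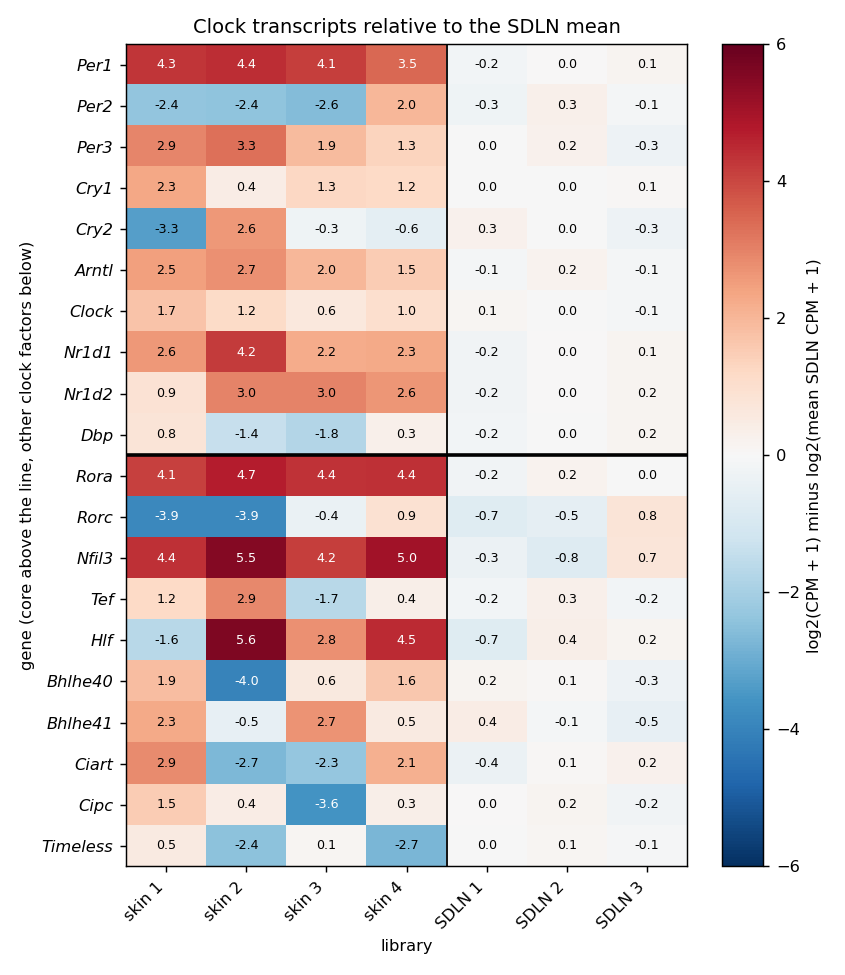
Difference of log2(CPM + 1) from log2(mean SDLN CPM + 1) in each library (columns, skin left and SDLN right) for the 10 core clock genes above the line and 10 other clock transcription factors and repressors below it. Rora and Nfil3 stand above the SDLN mean in all 4 skin libraries, as Per1 does, while Hlf, Bhlhe40 and Ciart are above it in some skin libraries and below it in others.

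The other members of that list did not pass edgeR's test with all libraries, and those named here were chosen after their values were seen. Hlf and Tef encode the D-box activators related to DBP. Hlf was at 0.184, 179, 24.2 and 81.0 CPM in skin 1 to 4, against 1.22, 3.73 and 3.17 CPM in SDLN 1 to 3, and it was called higher by DESeq2 and by edgeR's test without skin 1, where it was lowest. Tef was at 6.26 to 168 CPM in skin and 19.5 to 27.5 CPM in SDLN. Bhlhe40, an E-box repressor also known as DEC1, was at 167, 1.86, 67.9 and 140 CPM in skin 1 to 4, against 51.4, 48.1 and 36.8 CPM in SDLN 1 to 3. Ciart, a repressor of CLOCK and BMAL1, was at 57.3, 0.243, 0.617 and 34.2 CPM in skin 1 to 4, against 5.29, 7.39 and 8.50 CPM in SDLN 1 to 3. Ciart and Dbp were both above the SDLN range in skin 1 and 4 and below it in skin 2 and 3.

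Among 11 kinases, ubiquitin ligases and the deubiquitinase that act on clock proteins, 0 were called in either direction by edgeR's test, with 1 higher and 0 lower at an unadjusted p under 0.05, 1 higher with DESeq2 (Usp2), 0 with limma-voom and 1 lower without skin 1 (Fbxl21), both named after their results were seen. The most abundant, the kinase gene Gsk3b, was at 331 ± 93.6 CPM in skin (SD, n = 4) and 317 ± 133 CPM in SDLN (SD, n = 3). Of 15 coregulators, 2 rose, 1 fell and 12 did not pass edgeR's test, with 4 higher and 3 lower at an unadjusted p under 0.05. For neither list is the share of all tested genes at the unadjusted threshold given here, so nothing is read from those counts. Kmt2a was called higher by DESeq2 and by edgeR's test without skin 3, and Nono was called lower by DESeq2, by limma-voom and by edgeR's test without skin 1. Sfpq, a partner of PER complexes, was at 312 ± 19.7 CPM in skin (SD, n = 4) and 155 ± 22.2 CPM in SDLN (SD, n = 3; adjusted p = 0.0389). Top2a, a topoisomerase of dividing cells, was at 178 ± 46.6 CPM in skin, against 65.6 ± 5.48 CPM in SDLN (adjusted p = 0.0380), and Parp1, a poly(ADP-ribose) polymerase that modifies CLOCK, fell to 32.0 ± 7.34 CPM in skin, against 119 ± 24.6 CPM in SDLN (adjusted p = 0.0380). None of these 3 passed without SDLN 1, 2 or 3 (adjusted p 0.147 to 0.262), and Sfpq and Top2a did not pass without skin 4 (adjusted p 0.0667 and 0.0547). All 3 also missed the threshold without the low-count filter (adjusted p 0.122 for Sfpq, 0.0951 for Top2a and 0.0533 for Parp1).

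Per1 is known to respond to glucocorticoids, to cyclic AMP and as an early response gene. So 3 lists of genes tied to these responses are set beside it, with 31 genes in all, some of them in more than 1 list. Of 29 tested, 14 rose and 0 fell by edgeR's test, where 3.28% of all tested genes were called higher and 3.96% lower, and 0 were lower also at an unadjusted p under 0.05 and by DESeq2 or limma-voom, and their median log2 fold change was 3.09, against 0.05 over all tested genes. DESeq2 called 20 of them higher and limma-voom 12, against 923 and 271 of all 11376 tested genes. The glucocorticoid list holds induced genes and Nr3c1, the gene of the receptor itself. Of its 7 tested genes, 2 rose (Dusp1 and Nr3c1) and 5 did not pass edgeR's test. At an unadjusted p under 0.05, 6 of the 7 were higher. The share of all tested genes at that threshold is not given here, so nothing is read from this count. DESeq2 called 5 of the 7 higher, adding Tsc22d3, Sgk1 and Klf9, and limma-voom called Nr3c1 but not Dusp1. Nr3c1, the glucocorticoid receptor, was at 735, 788, 494 and 722 CPM in skin 1 to 4, against 159, 149 and 152 CPM in SDLN 1 to 3 (log2 fold change 2.16, adjusted p = 0.00566), and was not called without SDLN 1 or 2 (adjusted p 0.0615 and 0.0650, with 1.26e-14 to 0.0939 over all alternatives). Among 8 CREB targets, 6 rose (Crem, Nr4a1, Nr4a2, Fos, Sik1 and Pde4d) and 2 did not pass. Crem, a cyclic AMP response factor, was at 725, 608, 602 and 843 CPM in skin 1 to 4, against 52.7, 59.1 and 80.9 CPM in SDLN 1 to 3 (log2 fold change 3.43, adjusted p = 0.00157). Among 16 immediate early genes that cell dissociation is known to induce, 8 rose and 8 did not pass. Those that rose included Fos, Fosb, Junb, Zfp36 and Hspa1b, and the sum of all 16 was 5309 to 10556 CPM in skin and 997 to 1217 CPM in SDLN. Per1 was lowest in skin 4 and this sum was lowest in skin 3, and both were highest in skin 2. The part of these responses in the Per1 level was not tested. Without SDLN 1, 2 or 3 the 14 called genes numbered 5, 4 and 7.

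Genes whose libraries followed Per1 most closely were Ahnak, a large scaffold protein, Chd7, a chromatin remodeller, Sgms1, a sphingomyelin synthase, Plk2, a kinase of the polo-like family, and Nav2. Their Pearson correlations of log2(CPM + 1) with Per1 over the 7 libraries were 0.994 to 0.995, the highest of 7039 genes averaging 20 CPM or more. For Clock they were Rsrc2, Edaradd, Rnpep, Esyt1 and Bnip2, with 0.983 to 0.989. These values describe 7 libraries of 2 tissues and carry no test. Per1 and Clock were each higher in every skin library than in any SDLN library.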

How the data were processed

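Messenger RNA of sorted Tregs was sequenced in 4 skin and 3 SDLN libraries. Per the labels, RNA came from frozen cells and was turned into cDNA by a SMARTer kit for ultra-low input. The authors deposited 1 table of raw counts for each gene symbol, together with the counter's summary lines. The submitters' processing notes name the counter HTSeq 0.6.1, the aligners TopHat2 2.0.12 and Bowtie2 2.1.0.0, the build mm10, and also SAMtools 0.1.19.0 and CASAVA 1.8.2. Which annotation and strand setting the counter used is not stated there. The summary lines, kept out of library sizes and tests, held 61.2% to 70.4% of all counts per library for alignments to several places, 10.0% to 17.1% for reads outside genes and 0.365% to 0.467% for ambiguous reads.

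Genes were kept by filterByExpr of edgeR 4.0.16 in R 4.3.3 (minimum count 10), scaled by TMM and tested for tissue by the robust quasi-likelihood test, two-sided, with Benjamini-Hochberg adjustment over all 11376 genes and a threshold of 0.05. The SE printed with a log2 fold change of edgeR's test was derived from that test. It is the absolute log2 fold change over the square root of the F statistic. CPM used TMM-scaled sizes of the kept genes. Exon lengths and coordinates come from GENCODE M21 (mm10), matched by symbol. CPM per kilobase divide by the union of annotated exons. Other settings tried were DESeq2 1.42.0, limma-voom (limma 3.58.1), scaling by RLE, upper quartile or library size, testing without the filter or above a mean of 5 CPM, a block for replicate number, and leaving out each library. The genes, lists and tests were chosen with earlier results of these data known. By rule, the named genes are all 10 clock genes, called genes of each list (at most 6, or else its most abundant gene), the leading gene of each marker list by skin CPM, and the 5 genes closest to the clock gene most abundant in skin and to the one most abundant in SDLN. Further genes were named after their values were seen: Hlf, Tef, Bhlhe40 and Ciart, genes called by another tool or setting alone, and Foxp3, Cd3e and markers without counts, which check the cell type.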

Additional observations from a re-analysis of the deposited data

Results flagged for a closer look

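In skin, 3 of the 10 clock genes had a library whose gap to the nearest of the others, as a share of the range, was above Dixon's 95% critical value for 4 samples. They were Per2 in skin 4 (23.1 CPM), Cry2 in skin 2 (64.2 CPM) and Nr1d1 in skin 2 (199 CPM), each the highest library. Chance flags about 1 in 20 groups under a normal spread, and 17.4% of all tested genes were past this value in skin. The causes were not tested.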

How the results depend on the processing

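Per1 and Rora were called under all 15 alternatives, with log2 fold changes of 4.14 to 4.43 and 4.29 to 4.53. The 5 called clock genes numbered 1 without the low-count filter, 1 with limma-voom, 3 at a mean of at least 5 CPM and 1 to 4 with 1 library left out. Other clock genes higher in skin numbered 2 without the filter, 7 with DESeq2 and 1 to 5 with a library left out, and those lower 0 without the filter, 2 with DESeq2, 2 with limma-voom and 0 to 3 with a library left out. The genes set beside Per1 numbered 4 to 17 with a library left out. All genes called higher and lower numbered 188 and 70 without the filter, 923 higher with DESeq2, 99 lower at a mean of at least 5 CPM, 729 lower with limma-voom, and 33 to 582 and 9 to 822 with a library left out.

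Signs turned for genes that were not called. With limma-voom the log2 fold change was -3.52 for Per2 and -1.03 for Cry2. With a library left out it ranged from -5.36 to 0.61 for Per2, -1.08 to 1.43 for Cry2, -0.97 to 0.21 for Dbp and -0.26 to 0.26 for Gsk3b, which was at -0.035 with upper-quartile scaling. Dbp was not tested at a mean of at least 5 CPM. Same-numbered libraries did not deviate together (correlations 0.07, -0.03 and -0.01). With skin libraries as unlike each other as these, such values cannot exclude pairs. By Xist and Ddx3y, skin 3 had the female pattern and SDLN 3 the male one, so these libraries did not come from the same animal. The numbers were not taken as pairs. When replicate number entered as a block (replicate block, 6 libraries), 32 genes were called higher and 10 lower, 1 clock gene, 1 other clock gene higher and 0 lower, and 5 genes set beside Per1, with -5.69 for Per2 and -0.47 for Cry2. The cause of these changes was not tested. Counts near 0 limit Per2, Cry2 and Dbp in single skin libraries, where 3 counts stand for 0.214 to 0.276 CPM.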

Other observations

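Of the 13 other clock transcription factors and repressors listed, 3 did not pass the low-count filter, which asks for counts in several libraries, and were not tested. Npas2, which can stand in for Clock, was at 0, 0.0809, 10.2 and 6.99 CPM in skin 1 to 4, against 0.339, 0.621 and 0.154 CPM in SDLN 1 to 3. Arntl2, a paralog of Arntl, was at 10.03 CPM in skin 2 and had no count in the other skin libraries, against 0.154 to 0.345 CPM in SDLN. Rorb, a paralog of Rora, was at 107 CPM in skin 3 and had no count in the other skin libraries, against at most 0.0678 CPM in SDLN. Skin 3 was also the library with the highest sums of keratinocyte and fibroblast markers, and their part in the Rorb counts was not tested.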
